A study of Mus musculus with 2 samples.

Results

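The chemokine ligands of the mouse are the genes whose symbols start with Ccl, Cxcl, Cx3cl or Xcl followed by a digit, and this symbol rule found 44 gene rows among 32285 genes. The 44 rows carry 38 symbols, because 5 symbols (Ccl19, Ccl21a, Ccl21b, Ccl21c and Ccl27a) stand on 11 rows of near-identical gene copies. No UMI (unique molecular identifier, 1 counted RNA molecule) was seen in kept barcodes for 9 rows, and 7 further rows had too few for description. The 28 rows with at least 30 UMIs in typed cells of each library are described here. Pf4 and Ppbp, chemokines of platelets, lie outside the symbol rule.

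Chemokines are small secreted proteins that guide migrating cells along gradients by way of G protein-coupled receptors. Those with a CXC motif preceded by an ELR triplet mainly attract neutrophils, the interferon-inducible CXC members attract activated T cells, and many CC members attract monocytes, eosinophils or lymphocytes. In the atherosclerotic aorta they are best known for bringing monocytes and other leukocytes into the vessel wall, while the homeostatic members position cells in resting tissue.

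Aortic cells of 20-week-old ApoE-/- mice, which lack apolipoprotein E and are prone to plaques, were profiled by droplet 3' RNA sequencing in 2 samples. One is labelled HFD and the other MSC_ITGB3, so both share the ApoE-/- strain, and the series describes HFD-fed models with or without MSC_ITGB3 treatment. The labels do not spell out either abbreviation and do not say how many animals were pooled. The counts came as 2 libraries, told apart by the barcode suffix, and nothing ties a suffix to a sample, so HFD and MSC_ITGB3 could not be set against each other. Where values come in pairs, the first is library 1 and the second library 2.

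Barcodes with at least 3000 UMIs and at most 20% mitochondrial UMIs were kept, 6332 and 6540 of them, at median depths of 8746 and 6031 UMIs. They held 71.33% and 49.65% of the 110257209 and 124266676 UMIs, and 17 barcode sequences were kept in both libraries. Each barcode was typed by 18 sets of marker genes, none of them a chemokine ligand, against the UMIs expected from free RNA. Free RNA, which leaks from broken cells into every droplet, was read from 65270 and 39379 barcodes of 10 to 100 UMIs. Levels are CPM, that is, counts of a gene scaled by the total UMIs of the barcodes summed, and 3' UMI counts need no correction for gene length. Bracketed ranges are exact 95% intervals and cover counting error only, since there are no replicates and no p-value can be had.

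Typing gave 8 cell types with at least 50 barcodes in each library: smooth muscle, fibroblast, chondrocyte, endothelial, macrophage, T, Schwann and pericyte. With at least 10 barcodes there were 12, adding lymphatic endothelial, dendritic, neutrophil and erythroid. At 20 CPM or more and at least 2-fold above the other barcodes, 6 of 8 fibroblast markers and 8 of 8 macrophage, T, Schwann and endothelial markers marked their own type. A large share, 23.8% and 37.5% of kept barcodes, met no marker set and is called ungated, with a summed chemokine level of 3949 and 2512 CPM. The pericyte-gated barcodes also held fibroblast markers at 1.40 and 0.768 times their level in free RNA, with 0 of 8 absent. Smooth muscle markers stood at 0.861 and 1.15 times free RNA there, against 7.99 and 6.75 times for the pericyte markers. Chondrocyte-gated barcodes held fibroblast markers at 3.24 and 1.74 times free RNA, and their own markers at 16.5 and 9.18 times. Neither gate was free of markers of other cells. Free RNA was estimated to make up a share of 0.692 and 0.881 of the erythroid-gated UMIs and 0.264 and 0.593 of the neutrophil-gated UMIs. For pericytes the share was 0.260 and 0.540, and for Schwann cells 0.282 and 0.357.

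The summed chemokine level separated the cell types. It was 9618 CPM (9539 to 9698) and 8059 CPM (7970 to 8149) in macrophages, and 7058 CPM (7010 to 7105) and 5664 CPM (5607 to 5722) in fibroblasts. Neutrophils held 13375 and 16017 CPM, lymphatic endothelial barcodes 17465 and 9663 CPM, and T cells 6250 and 5436 CPM. At the low end, smooth muscle held 1124 and 488 CPM, endothelial cells 1086 and 978 CPM and chondrocytes 1007 and 525 CPM. Free RNA stood at 3288 and 2919 CPM, so these 3 cell types had a lower chemokine level than free RNA in both libraries. Free RNA was estimated to make up 0.0455 and 0.150 of smooth muscle UMIs and 0.110 and 0.200 of endothelial UMIs. For chondrocytes the share was 0.0920 and 0.220. A level below free RNA, or a member not called above it, therefore does not show that these cells lack chemokine RNA.

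**Figure D1:**
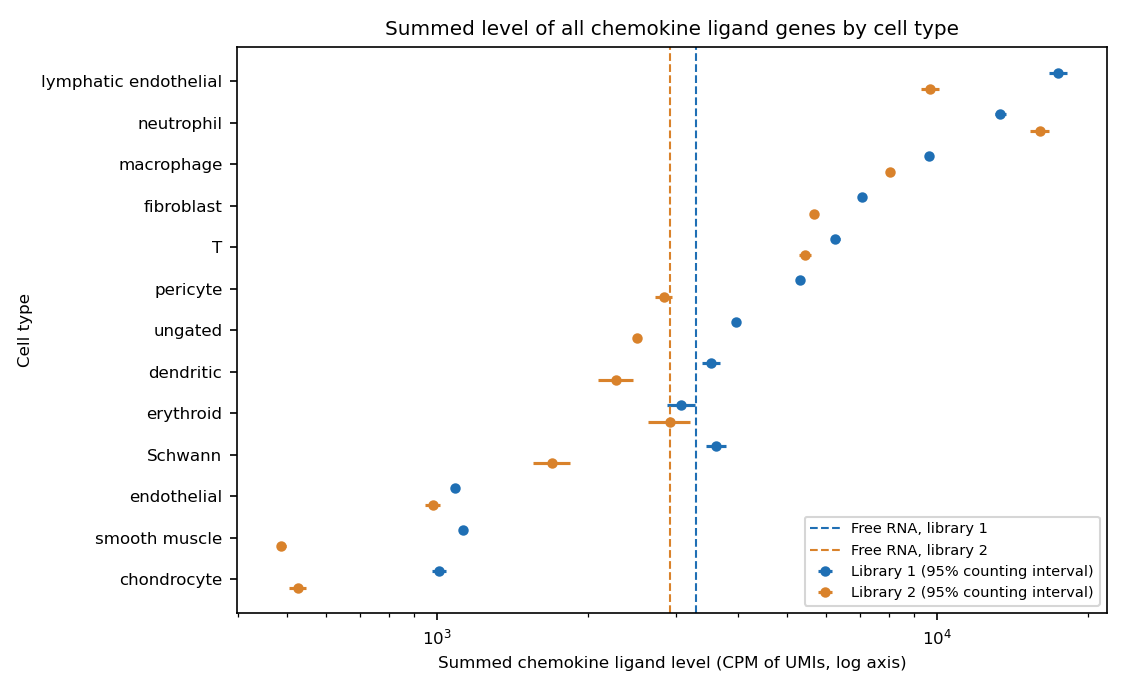
Summed level of the 44 chemokine ligand gene rows by cell type, in CPM on a log axis. Points are library 1 (blue) and library 2 (orange) with 95% counting intervals, and dashed lines mark free RNA at 3288 and 2919 CPM. Macrophages, fibroblasts, T cells, neutrophils and lymphatic endothelial barcodes lie above both lines, and smooth muscle, endothelial cells and chondrocytes below both.

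A member was called above free RNA in a type where it had at least 10 UMIs, a ratio of at least 2 and an interval above 1 in each library. Only members with 10 UMIs in the type entered, so the counts describe those members. Macrophages led with 12 of 24 members called, against 11.8% of all genes tested in that type. Fibroblasts had 5 of 21 (all genes 4.52%), pericytes 3 of 12 (3.3%), T cells 4 of 15 (19.4%), neutrophils 4 of 8 (27.5%), dendritic barcodes 4 of 8 (25.6%), lymphatic endothelial barcodes 1 of 2 (25.7%) and Schwann cells 1 of 5 (16.2%). None was called among 21 in smooth muscle (3.92%), 18 in chondrocytes (5.36%), 20 in endothelial cells (11.2%) and 6 in erythroid barcodes (4.27%). With the single barcode richest in the member left out, 29 of the 34 calls remained. The 5 lost were Cxcl9 in macrophages, Ccl4 in dendritic barcodes, Ccl3 in T cells, Cxcl10 in Schwann cells and Ccl11 in pericytes.

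Over the 8 types of at least 50 barcodes, 22 of 28 members had the same leading type in both libraries, and for 18 the lead lay above the next type by its interval in both. Macrophages led 10, fibroblasts 6, T cells 2, pericytes 2, Schwann cells 1 and smooth muscle 1. Over the 12 types of at least 10 barcodes the leading type was shared by 19 of 28. These counts, and those of leading gene sets below, were not made over all genes, so they describe the members only.

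**Figure D2:**
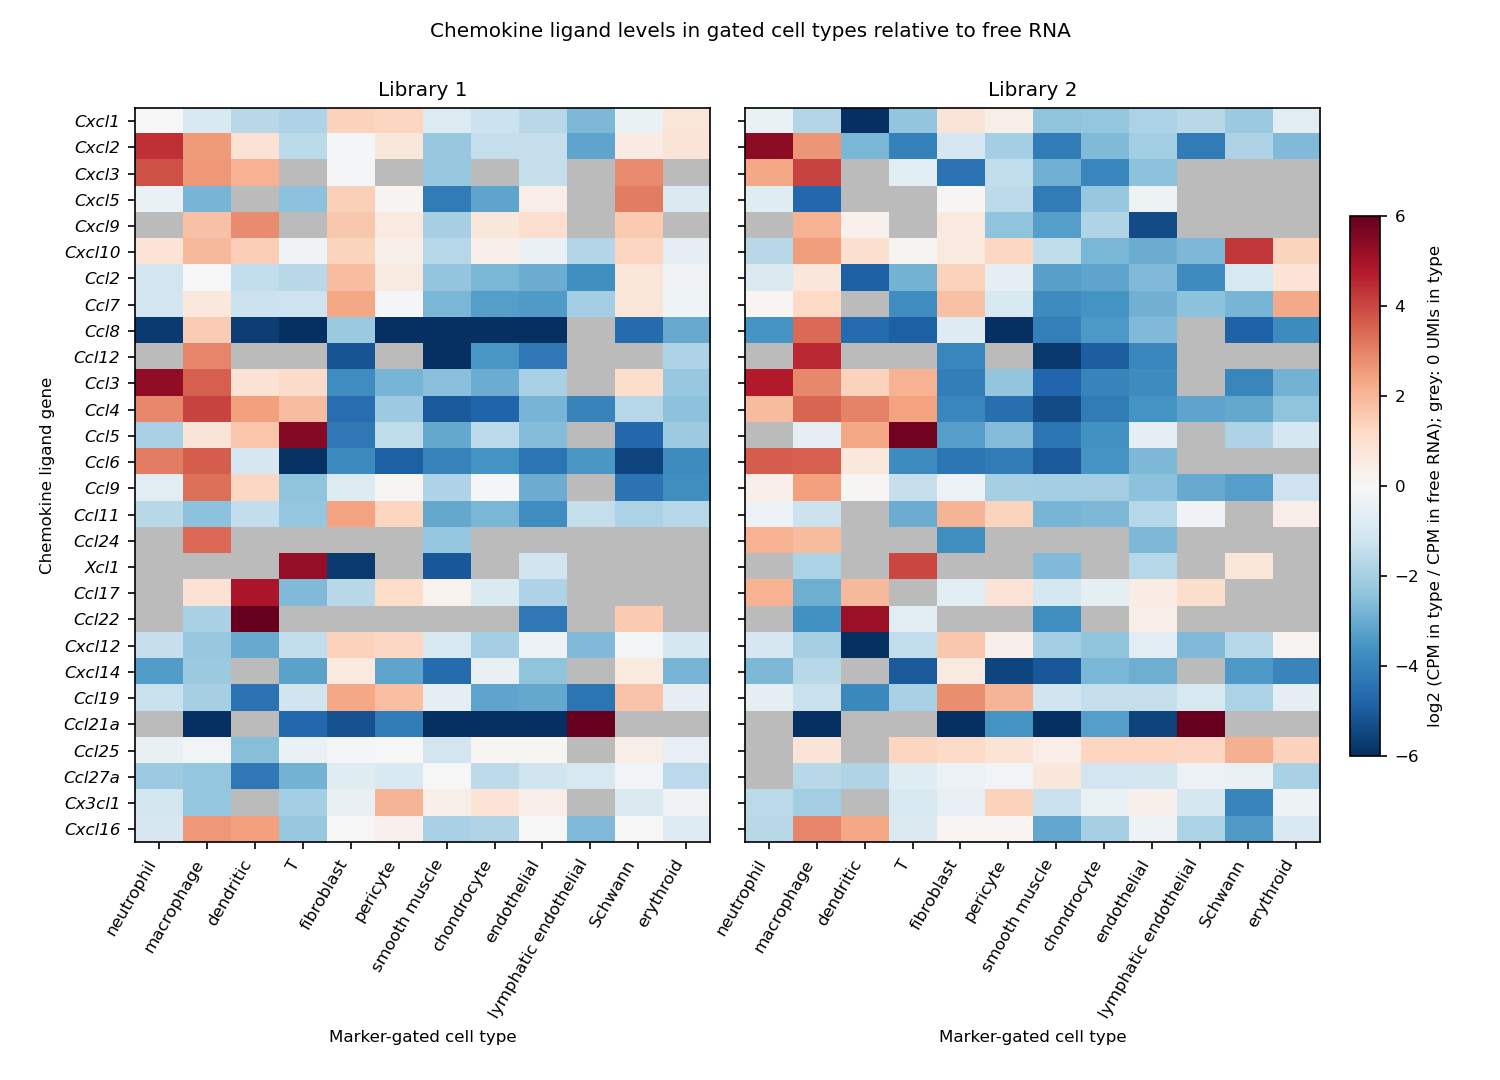
Level of each of the 28 described members (rows, grouped by role) in 12 cell types (columns), as log2 of CPM over CPM in free RNA, for library 1 (left) and library 2 (right). Red is above free RNA, blue below, grey marks 0 UMIs in the type, and the colour scale is capped at both ends. Macrophage and neutrophil columns are red at Cxcl2, Ccl3, Ccl4 and Ccl6 in both libraries, while smooth muscle and chondrocyte columns are mostly blue.

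Among the neutrophil-attracting members with an ELR triplet, the close relatives Cxcl1 and Cxcl2 differed in their leading cell. Cxcl1, a main neutrophil attractant of stromal cells, stood at 2013 CPM (1988 to 2039) and 1228 CPM (1201 to 1255) in fibroblasts. Pericytes held 1846 and 896 CPM, smooth muscle 438 and 133 CPM and free RNA 766 and 707 CPM. Fibroblasts therefore exceeded free RNA 2.63-fold (2.50 to 2.76) and 1.74-fold (1.63 to 1.85), short of the 2-fold minimum in library 2. After each barcode was thinned to 3000 UMIs, pericytes took the lead for Cxcl1 in library 1.

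Cxcl2, which acts on the same receptor, was led by neutrophils at 8908 and 12331 CPM. Macrophages followed at 2538 and 1863 CPM, and free RNA held 430 and 297 CPM. The neutrophil level was 20.7-fold (19.3 to 22.3) and 41.5-fold (37.3 to 46.2) that of free RNA, in only 93 and 26 barcodes. Fibroblasts were at or below free RNA for Cxcl2, at 406 and 147 CPM, so Cxcl1 and Cxcl2 differed in their order of cell types in both libraries. Cxcl3, a close relative of both, stood at 13.5 and 53.6 CPM in macrophages, and 1 barcode held 51.4% of those UMIs in library 2. Without it Cxcl3 stood at 26.2 CPM there. Neutrophils held 31.4 and 16.4 CPM of Cxcl3, from 14 and 2 UMIs, the highest of the 12 types in library 1. Among the 12 types, Cxcl5 was highest in Schwann cells of library 1, at 99.9 CPM, and in fibroblasts of library 2, at 14.4 CPM. A single barcode held 94.1% of the Schwann UMIs, and without it Cxcl5 stood at 6.66 CPM there. Typed barcodes held only 743 of 1421 and 164 of 716 Cxcl5 UMIs of kept barcodes. The rest lay in ungated or mixed barcodes, which were not ranked.

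Cxcl1, Cxcl2 and Cxcl3 also share a promoter feature, shown here because Cxcl1 and Cxcl2, which share it, were led by different cells. The 3 were picked because each had been found to hold an NF-kB-type site. The longest run of letters common to up to 250 bases before their start sites, in RefSeq promoters of GRCm38.p6, was GGGAATTTCCC, 11 bases long. On either strand it occurs in 14 of 32851 promoters (0.0426%), and among the 27 members with a promoter in the table it occurs in these 3 only. It begins 71 bases before the RefSeq start in Cxcl1, 97 in Cxcl2 and 73 in Cxcl3. The run is in capitals in the sequences below, which are 5' to 3' on the plus strand and end before the GENCODE start. Cxcl1 is chr5:90890995-90891240, Cxcl2 is chr5:90903649-90903870 and Cxcl3 is chr5:90785851-90786100.
Cxcl1: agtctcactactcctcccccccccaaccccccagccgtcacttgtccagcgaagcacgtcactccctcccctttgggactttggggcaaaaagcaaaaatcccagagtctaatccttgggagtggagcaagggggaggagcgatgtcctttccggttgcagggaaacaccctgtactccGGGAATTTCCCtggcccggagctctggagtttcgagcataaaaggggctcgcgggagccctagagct
Cxcl2: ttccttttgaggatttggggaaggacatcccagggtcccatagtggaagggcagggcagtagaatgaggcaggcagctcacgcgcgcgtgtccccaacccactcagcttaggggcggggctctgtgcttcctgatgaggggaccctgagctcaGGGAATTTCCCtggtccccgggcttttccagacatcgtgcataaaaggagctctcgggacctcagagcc
Cxcl3: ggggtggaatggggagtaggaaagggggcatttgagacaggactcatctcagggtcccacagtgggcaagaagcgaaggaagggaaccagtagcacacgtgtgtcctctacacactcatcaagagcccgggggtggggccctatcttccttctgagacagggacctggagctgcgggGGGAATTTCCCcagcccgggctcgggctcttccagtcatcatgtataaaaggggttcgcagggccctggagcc

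The interferon-inducible members, which recruit activated T cells through Cxcr3, were highest in macrophages or Schwann cells among types of 50 or more barcodes. Cxcl10 held 201 and 295 CPM in macrophages, 3.80-fold (3.15 to 4.63) and 5.67-fold (4.52 to 7.21) above free RNA. In library 2, 1 barcode held 47.1% of those macrophage UMIs, and without the richest barcode of each library Cxcl10 stood at 180 and 159 CPM, 3.40-fold (2.81 to 4.14) and 3.06-fold (2.42 to 3.91) above free RNA. In Schwann-gated barcodes it went from 129 CPM in library 1 to 992 CPM in library 2, a ratio of 7.67 (5.86 to 10.2), and 1 barcode held 53.1% of the UMIs there in library 2. Without the richest barcode the Schwann levels of Cxcl10 were 101 and 485 CPM. Of 10 interferon response genes, 9 were also higher in library 2 in those barcodes, against 9.32% of all genes tested. Isg15, an interferon-induced ubiquitin-like protein, went from 196 to 949 CPM and Ifit1, which binds viral RNA, from 17.6 to 582 CPM. T cell markers stood at 2.36 times free RNA in the same library 2 barcodes (1 of 8 at 0) and at 0.0444 times in library 1 (7 of 8 at 0), and their part in the result was not tested. Cxcl9 reached 4.44 and 52.1 CPM in macrophages, and 1 barcode held 92.3% of the 26 macrophage UMIs in library 1. Without the richest barcode of each library it stood at 0.342 and 39.1 CPM there, and fibroblasts took the lead for Cxcl9 in library 1.

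Summed over each cell type, the monocyte-attracting CC members fell into a fibroblast pair and a macrophage pair. Ccl2, the main ligand of Ccr2, stood at 1448 and 874 CPM in fibroblasts against 405 and 331 CPM in free RNA, ratios of 3.58 (3.35 to 3.83) and 2.64 (2.41 to 2.90). Macrophages held 407 and 525 CPM of Ccl2, near free RNA in library 1 and 1.59-fold (1.44 to 1.75) above it in library 2. Ccl7, a further monocyte attractant, followed at 810 and 614 CPM in fibroblasts, 4.93-fold and 3.40-fold above free RNA. The erythroid-gated barcodes of library 2 exceeded that with 876 CPM. Macrophages held 254 and 413 CPM of Ccl7, against 164 and 180 CPM in free RNA. The Lyve1 set of macrophages, described below, held 1503 CPM of Ccl2 and 1528 CPM of Ccl7 in library 2, above the fibroblast levels. In library 1 it held 685 and 696 CPM, below them.

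Ccl12 and Ccl8 were led by macrophages. Ccl12 held 90.2 and 317 CPM in macrophages and at most 3.28 CPM in any other of the 12 types. Ccl8 held 681 and 981 CPM in macrophages and 50.5 and 54.3 CPM in fibroblasts, a lead of 13.5-fold (12.4 to 14.7) and 18.1-fold (16.2 to 20.2). The Ccl8 signal was carried by few cells, and 7 and 10 kept barcodes held 50% of its UMIs. Free RNA was rich in Ccl8 in library 1, at 238 CPM against 94.1 CPM in library 2.

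The macrophage inflammatory CC members, which attract monocytes and other leukocytes, were shared between myeloid cells, with Ccl5 apart. Ccl4 stood at 2155 and 1235 CPM in macrophages, 16.8-fold (15.0 to 19.0) and 11.4-fold (9.77 to 13.4) above free RNA. Thinned to 3000 UMIs, 51.8% and 52.5% of macrophages had a Ccl4 UMI (62.7% and 64.2% unthinned), against 1.11% and 1.61% of smooth muscle (3.18% and 2.11% unthinned). Median depths were 8166 and 5440 UMIs in macrophages and 10946 and 9073 in smooth muscle. Ccl3, its neighbour and close relative, was higher in neutrophils, at 1240 and 1338 CPM, than in macrophages, at 380 and 357 CPM. The neutrophil lead for Ccl3 was 3.26-fold (2.97 to 3.58) and 3.75-fold (3.17 to 4.42).

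Ccl6 held 1110 and 506 CPM in macrophages and 741 and 525 CPM in neutrophils. In library 2 the intervals of the neutrophil and macrophage levels did not part, with a ratio of 1.04 (0.796 to 1.33). Among the cell types compared, Ccl9 was highest in macrophages, at 414 and 180 CPM, 9.76-fold and 5.54-fold above free RNA. Macrophages held 2421 of 4439 and 698 of 2144 Ccl9 UMIs of kept barcodes. All typed barcodes together held 3306 and 1084, and the rest lay in ungated or mixed barcodes. Ccl5, a T cell and natural killer cell product, stood at 4682 and 4003 CPM in T cells, 45.7-fold (40.1 to 52.3) and 56.1-fold (46.4 to 68.4) above free RNA. Thinned, 71.2% and 51.9% of T cells had a Ccl5 UMI (72.3% and 54.9% unthinned), against 1.91% and 1.80% of smooth muscle (3.34% and 2.35% unthinned). The median T cell depths were 5339 and 5174 UMIs. The 19 and 6 natural killer or innate lymphoid barcodes held 4207 and 3068 CPM of Ccl5, with 61.3% of the library 2 UMIs in 1 barcode.

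Xcl1, a ligand for the dendritic cell receptor Xcr1, was led by lymphocytes. It stood at 170 and 31.5 CPM in T cells and at 821 and 416 CPM in natural killer or innate lymphoid barcodes, with free RNA at 4.42 and 1.95 CPM. In library 2 Xcl1 had only 68 UMIs in kept barcodes, 30 of them in T cells, and 1 barcode held 23.5% of the 68. Ccl22, a ligand of Ccr4, was led by dendritic barcodes at 128 and 119 CPM. Free RNA held 0 UMIs of Ccl22 in library 1. With these taken as 3 counts the ratio there was 96.3, and it was 36.7 (14.2 to 121) in library 2. A single barcode held 51.2% and 65.6% of the dendritic Ccl22 UMIs, and without it the levels were 63.0 and 42.7 CPM. Ccl17, the other Ccr4 ligand, was at 134 CPM in dendritic barcodes of library 1 and at 7.45 CPM in the 19 of library 2. Without the richest barcode Ccl17 stood at 36.2 CPM in library 1. The eosinophil attractant Ccl24 was found at 13.8 and 7.21 CPM in macrophages. Ccl11, the other eosinophil attractant described, was a fibroblast gene at 117 and 170 CPM, 5.41-fold (4.07 to 7.35) and 4.09-fold (3.18 to 5.35) above free RNA.

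Among homeostatic members, fibroblasts led 2. Cxcl12, which retains cells through Cxcr4, stood at 905 and 1332 CPM in fibroblasts, 823 and 542 CPM in pericytes, 271 and 283 CPM in endothelial cells and 349 and 433 CPM in free RNA. Thinning moved the lead for Cxcl12 in library 1 to pericytes. Ccl19, a ligand of Ccr7, held 830 and 756 CPM in fibroblasts and 588 and 455 CPM in pericytes, against 166 and 109 CPM in free RNA. Thinned, 62.6% and 61.6% of fibroblasts had a Ccl19 UMI, against 8.34% and 12.2% of endothelial cells. Unthinned shares for Ccl19 were 76.8% and 76.4% of fibroblasts and 12.2% and 15.5% of endothelial cells, at median depths of 8070 and 6030 and of 10154 and 6131 UMIs.

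Ccl21a, the other ligand of Ccr7, was found in lymphatic endothelial barcodes, a known source, at 17076 and 9087 CPM. Those 17 and 14 barcodes held nearly all of its UMIs, 2151 of 2171 and 2254 of 2298 in kept barcodes, and 3 and 2 barcodes held 50% of the Ccl21a UMIs of each library. Other types reached at most 2.84 CPM. Counts of Ccl19, Ccl21a and Ccl27a are uncertain where reads fit a near-identical copy, and the copies under the same symbols held 0 UMIs in kept barcodes.

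Cxcl14 stood at 67.9 and 153 CPM in fibroblasts, which led in library 2, and Schwann cells of library 1 held 68.6 CPM. A single barcode held 94.3% of those Schwann UMIs of Cxcl14, and 4.44 CPM remained without it. Ccl27a, a skin chemokine, stood at 31.2 and 41.6 CPM in smooth muscle, against 30.5 and 26.0 CPM in free RNA. It lay below free RNA in macrophages, at 6.15 and 8.25 CPM, and in endothelial cells, at 13.3 and 12.2 CPM. Ccl25, the gut and thymus chemokine, ranged from 0 to 22.8 CPM over the 12 types. The membrane-bound Cx3cl1, or fractalkine, was led among the typed barcodes by pericytes at 217 and 131 CPM, 4.06-fold (3.31 to 5.01) and 2.59-fold (1.92 to 3.50) above free RNA. Endothelial cells held 71.3 and 63.2 CPM of Cx3cl1, against 53.4 and 50.6 CPM in free RNA. Ungated barcodes stood at 128 and 91.2 CPM and held 2581 of 6196 and 2141 of 3317 Cx3cl1 UMIs of kept barcodes. Cxcl16, the membrane-bound ligand of Cxcr6, was shared by macrophages, at 605 and 782 CPM, and dendritic barcodes, at 553 and 510 CPM.

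The members left undescribed were sparse or rested on few cells. Cxcl13, a B cell attractant, had 984 and 47 UMIs in kept barcodes, and 3 ungated barcodes held 50% of those in library 1. Ccl20, a ligand of Ccr6, had 97 and 1 UMIs, of which 1 fibroblast-gated barcode held 52.6% in library 1. Ccl1, Cxcl15, Cxcl17, Ccl26 and Ccl28 had between 1 and 50 UMIs in kept barcodes of a library.

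Neighbouring genes did not always share a leading cell. Positions are from GENCODE vM21 on GRCm38, the assembly mm10, where all 44 rows were found and 7 lie on scaffolds outside the chromosomes. On chromosome 11, Ccl2 (chr11:82035571-82037453), Ccl7 and Ccl11 start within 22.3 kb of each other, and fibroblasts led all 3 in both libraries among types of 50 or more barcodes. Ccl12 starts 66.3 kb and Ccl8 79.6 kb from Ccl2, and macrophages led both. Further along chromosome 11, Ccl5 was led by T cells, while Ccl9, Ccl6, Ccl3 and Ccl4, up to 132.1 kb away, were led by macrophages or neutrophils. On chromosome 5, Cxcl1 and Cxcl2 start 131.9 and 144.5 kb from Cxcl5 and were led by fibroblasts and by neutrophils. On chromosome 8, Cx3cl1 lies between Ccl22 and Ccl17, and pericytes led the first while dendritic barcodes led Ccl22 in both libraries.

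**Figure D3:**
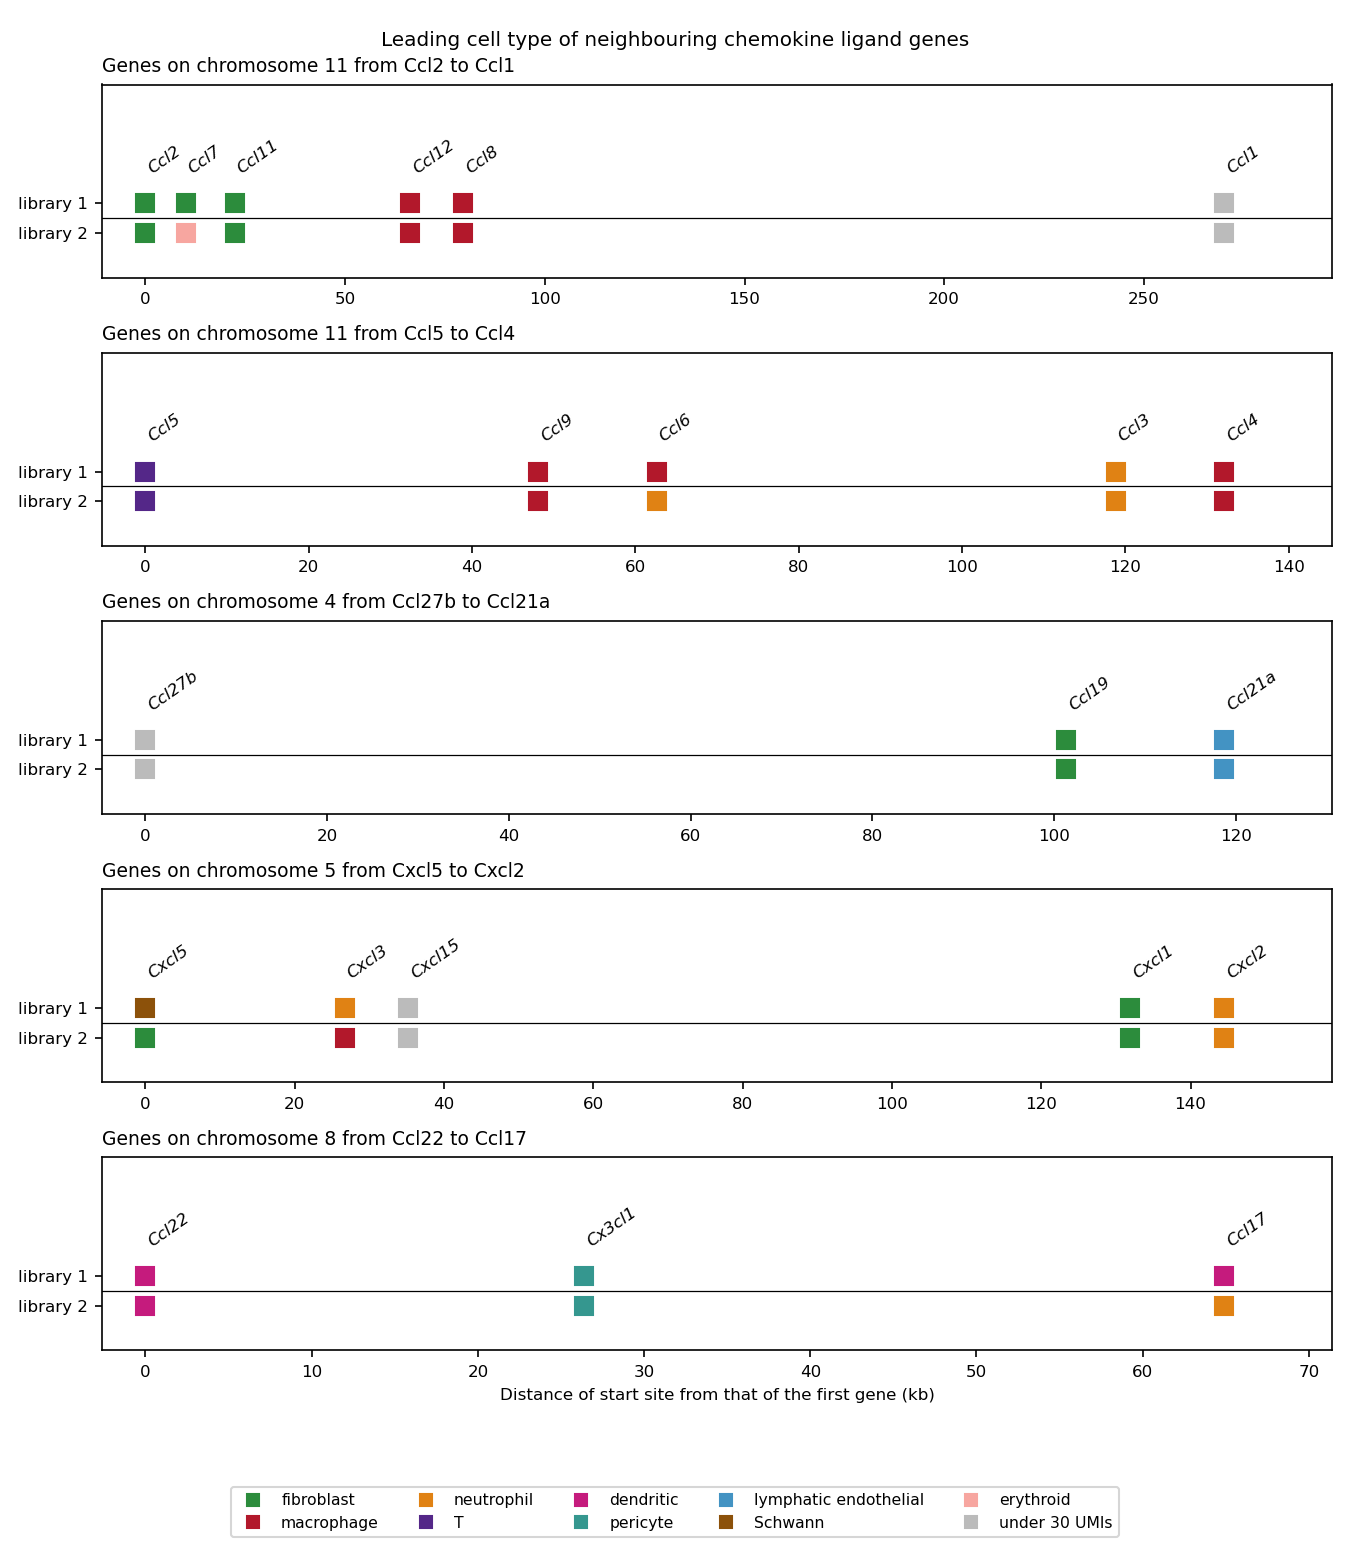
Start sites of neighbouring chemokine ligand genes in 5 stretches of the genome, in kb from the first gene of each. Squares are coloured by the cell type with the highest CPM among the 12 types of at least 10 barcodes, library 1 above the line and library 2 below, and grey marks genes not described. In the stretch from Ccl2, green (fibroblast) squares lie at 0 to 22.3 kb, with erythroid for Ccl7 in library 2, and red (macrophage) squares at 66.3 and 79.6 kb.

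Macrophage-gated barcodes were split by 3 sets of other genes, named by their first gene and chosen after these data had been seen: a Lyve1 set (Lyve1, F13a1, Cd163, Folr2), a Cd5l set (Cd5l, Gpnmb, Fabp5, Atp6v0d2) and a Cd72 set (Cd72, H2-Aa, H2-Ab1, H2-Eb1). They held 52 and 27, 109 and 37, and 60 and 85 barcodes, and 213 and 276 fitted no set. Of 20 members compared, 9 had the same leading set in both libraries, 7 of them with the lead above the next set by its interval. Barcodes of no set were not ranked. Ccl8 stood at 7395 and 6426 CPM in the Lyve1 set, against 223 and 1790 CPM in the next set. Ccl2, Ccl7, Ccl12 and Ccl9 were led by the Lyve1 set too, with Ccl7 at 696 and 1528 CPM. Cxcl16 was led by the Cd72 set at 784 and 1013 CPM. Cxcl10 was led by the same set at 610 and 960 CPM, and 3 and 1 of its barcodes held 50% of those UMIs. Cxcl3 and Cxcl14, the other 2 members with a shared leading set, were higher in library 2 in macrophages of no set, at 94.5 and 52.2 CPM, than in any set. Ccl4 did not repeat: the Cd72 set led in library 1 at 7079 against 1954 CPM, and the Lyve1 set led in library 2 at 3034 against 2187 CPM.

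Fibroblast-gated and ungated barcodes were split in the same way by 5 sets. Fibroblast-gated were 192 of 303 and 64 of 151 barcodes of the Opcml set, and 220 of 305 and 192 of 353 of the Inmt set. They were 48 of 68 and 65 of 138 in the Apod set. In the Penk set they were only 8 of 55 and 25 of 246, and in the Igfbp2 set 40 of 273 and 19 of 518. The Opcml set (Opcml, Pcsk6, Cd55) led Ccl2 at 2683 and 1708 CPM. The Apod set (Apod, Gpc3, Cthrc1) led Ccl11 at 214 and 317 CPM. Its Cxcl5 level of 159 and 37.7 CPM led too, with 1 barcode holding 50% or more of those UMIs in each library. Cxcl14 stood at 42.2 and 291 CPM in the Penk set (Penk, Mmp13, Prg4), which led the other sets by 1.41-fold (0.982 to 1.99) and 5.35-fold (4.04 to 7.22). Barcodes of no set held 66.7 CPM of Cxcl14 in library 1, more than the Penk set, and 96.5 CPM in library 2. Cx3cl1 was highest in the Igfbp2 set (Igfbp2, Postn, Myocd, Actg2) at 223 and 158 CPM, 2.45-fold (1.98 to 3.05) and 2.39-fold (2.05 to 2.81) above the next set. The Igfbp2 set also led Ccl17 at 18.1 and 12.5 CPM, 4.72-fold (2.41 to 10.3) and 3.91-fold (1.98 to 8.59) above the next set. The Inmt set (Inmt, Hsd11b1, Dpep1) led no member in both libraries. Ccl19 stood at 957 and 613 CPM in it, and 993 and 380 CPM in the Apod set. In all, 11 of 23 members compared had the same leading set, 6 of them by interval.

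**Figure D4:**
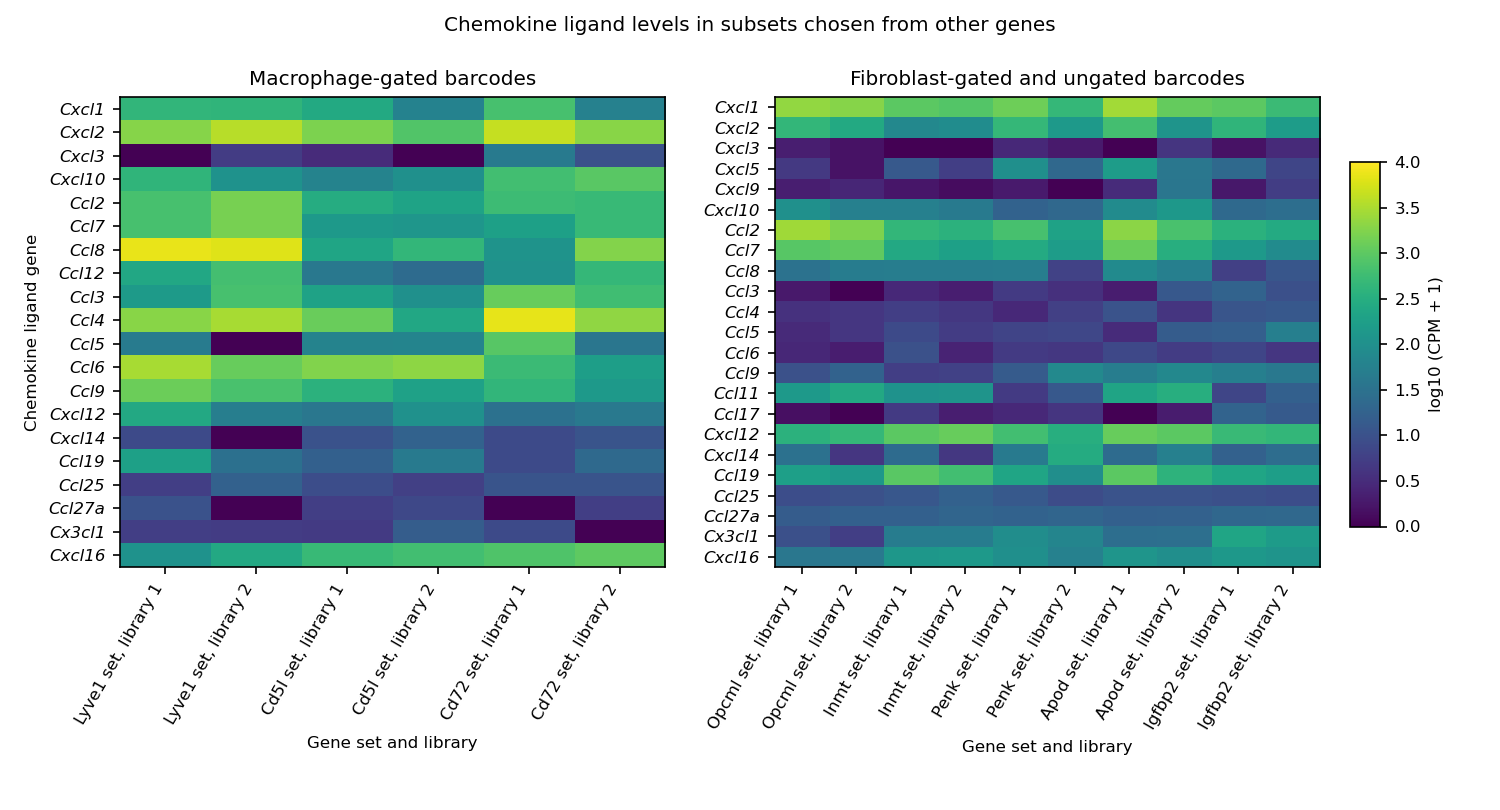
Level of members, as log10 of CPM plus 1, in subsets of macrophage-gated barcodes (left, 3 gene sets) and of fibroblast-gated and ungated barcodes (right, 5 gene sets), with a column for each set and library. Ccl8 is brightest in both Lyve1 set columns (7395 and 6426 CPM), and Cx3cl1 in both Igfbp2 set columns (223 and 158 CPM).

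The receptors of these ligands were read from a list of 23, of which 15 had 30 UMIs in each library. Receptors called above free RNA in macrophages included Ccr1, Ccr2, Cxcr3, Cxcr4, Cx3cr1 and Ccrl2, and those in T cells included Ccr2, Cxcr3, Cxcr4 and Cxcr6. Neutrophils had 3 of 3 called (Ccr1, Cxcr4 and Ccrl2), against 27.5% of all genes tested there. Ccr7, Cxcr2 and Xcr1 are markers of the typing and are no result. Ccr2, the receptor of Ccl2 and Ccl7, stood at 27.3 and 29.4 CPM in macrophages and 47.8 and 95.5 CPM in T cells. Cxcr6, the receptor of Cxcl16, was led by T cells at 119 and 296 CPM. Cx3cr1, the receptor of Cx3cl1, was led by macrophages at 57.4 and 143 CPM.

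Fibroblasts had 2 of 5 receptors called (all genes 4.52%) and endothelial cells 2 of 8 (11.2%), all of them atypical receptors, which take up chemokines without the usual G protein signal. Ackr3, a scavenger of Cxcl12, stood at 429 and 362 CPM in fibroblasts, 4.39-fold (3.84 to 5.05) and 2.83-fold (2.45 to 3.29) above free RNA. Ackr1 held 24.7 and 12.8 CPM and Ackr4 13.1 and 13.1 CPM in endothelial cells. Smooth muscle had 0 of 4 receptors called (all genes 3.92%), chondrocytes 0 of 3 (5.36%) and pericytes 0 of 3 (3.3%). Schwann cells (16.2%), lymphatic endothelial barcodes (25.7%) and erythroid barcodes (4.27%) had 0 of 1 each. With so few tested, these counts do not show that receptors are absent. Lymphatic endothelial barcodes had the highest Ackr2 level, at 111 and 12.1 CPM. In library 1 they also had the highest Ackr3 and Ackr4 levels, at 1064 and 71.4 CPM.

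Between the libraries, members were more often lower than higher in library 2 within the same cell type, 70 against 28 over the 8 types, counted at 1.5-fold with an interval that leaves out 1. With each barcode thinned to 3000 UMIs, 43 were lower and 21 higher. Over all genes tested, higher calls outnumbered lower ones in each of these types except smooth muscle. The member counts include members not called above free RNA in the type, and none was called in smooth muscle, chondrocytes or endothelial cells. In T cells the lower members Ccl19, Cxcl1, Cxcl2, Ccl2 and Ccl7 were not called above free RNA either. These ratios describe 2 libraries, not the treatment. In smooth muscle 13 of 23 members were lower (all genes 6.2%) and 5 higher (4.5%). Cxcl1 went from 438 to 133 CPM there, a ratio of 0.305 (0.290 to 0.320), and Cxcl2 from 89.3 to 16.0 CPM, a ratio of 0.180 (0.157 to 0.205). Free RNA differed less, with ratios of 0.922 for Cxcl1 and 0.692 for Cxcl2. All of these smooth muscle levels lie below free RNA. Of 11 immediate early genes 9, of 10 NF-kB feedback genes 7 and of 8 cycling genes 8 were lower in library 2 in smooth muscle as well, and their part in the result was not tested.

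Pericytes had 10 of 17 members lower (5.81%) and 2 higher (6.64%), with 6 of 11 immediate early and 7 of 10 NF-kB feedback genes lower. Chondrocytes had 9 of 20 lower (6.09%) and 2 higher (14.1%), with 6 of 10 NF-kB feedback genes lower. In Schwann cells 11 of 13 were lower (5.64%) and Cxcl10 alone was higher. Ccl19 there went from 551 to 29.3 CPM, and from 155 to 23.0 CPM without the richest barcode of each library. Thinning to 3000 UMIs brought the lower counts from 13 to 7 in smooth muscle, from 11 to 6 in Schwann cells and from 10 to 6 in pericytes.

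Fibroblasts had 9 of 25 lower (3.45%) and 2 higher (5.29%), while 0 of 11 immediate early and 0 of 10 NF-kB feedback genes were lower and 8 of 8 cycling genes were higher. Cxcl1 went from 2013 to 1228 CPM, Ccl2 from 1448 to 874 CPM and Cxcl2 from 406 to 147 CPM in fibroblasts. Cxcl14 was higher in library 2, at 67.9 and 153 CPM, a ratio of 2.25 (2.05 to 2.47). Thinning left 4 fibroblast members lower.

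Macrophages had 7 of 25 lower (3.63%) and 6 higher (10.7%). Ccl12 was higher in library 2 by a ratio of 3.51 (3.17 to 3.90) and Ccl7 by 1.63 (1.52 to 1.75). Ccl6, Ccl9, Ccl4 and Ccl5 were lower, with ratios of 0.456, 0.435, 0.573 and 0.274. The Lyve1 set, which led Ccl12, Ccl7 and Ccl9 in both libraries, made up 12.0% and 6.35% of macrophages. T cells had 6 of 16 lower (6.3%) and 4 higher (8.52%), with Xcl1 at a ratio of 0.186 (0.122 to 0.272) and Ccl3 at 2.96 (2.31 to 3.80). Endothelial cells had 5 of 23 lower (1.94%) and 6 higher (8.56%).

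**Figure D5:**
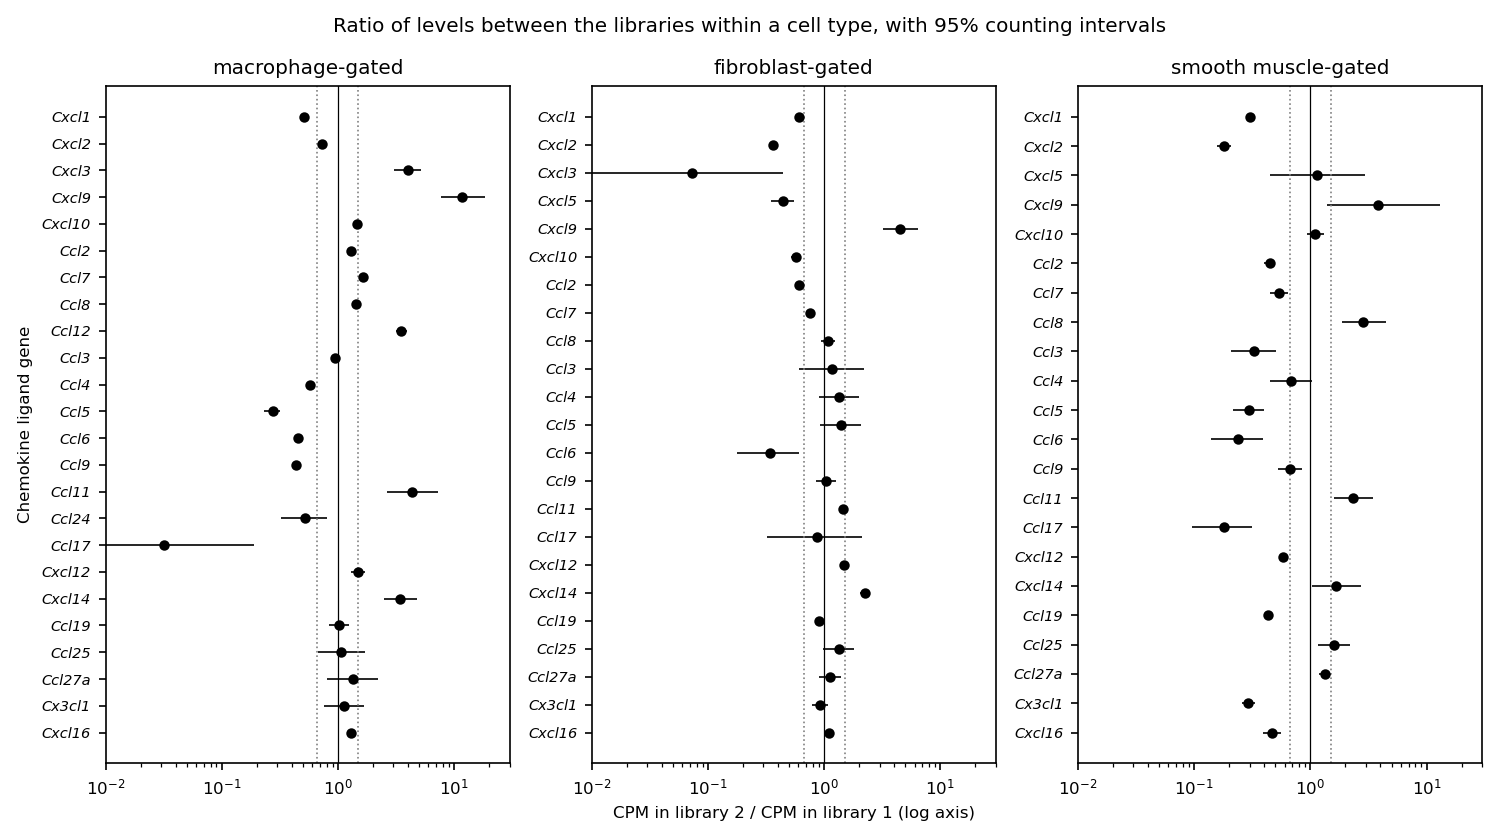
Ratio of CPM in library 2 to CPM in library 1 for each described member with 20 or more UMIs over both libraries and at least 1 in each, in macrophages, fibroblasts and smooth muscle, on a log axis. Bars are 95% counting intervals, the solid line is a ratio of 1 and dotted lines mark 1.5-fold either way. Cxcl1 lies left of 1 in all 3 panels, at 0.511, 0.610 and 0.305.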

How the data were processed

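Droplet 3' libraries of mouse aortic cells were analysed from 1 deposited matrix of raw UMI counts, which per the file headers the authors made with Cell Ranger 6.0.1. Per the submitters' processing notes, bcl2fastq, Seurat and mm10 were also used. The annotation was not given in the sources used here, and identifiers were matched to GENCODE vM21 (99.85% found). The matrix is unfiltered and its counts are not normalized.

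Each barcode was scored for each marker set by the mean of log2 of (UMIs plus 1) over (UMIs expected from free RNA plus 1). It was typed at a score of 0.4 or more with 3 markers above expectation and a margin of 0.2 over the second set. Barcodes that fit 2 sets (144 and 99) were left out as mixed. No doublet caller was run. Gene subsets needed 2 detected genes and a margin of 1.5. The score, its thresholds and the subsets were chosen after seeing the data, and the members and lists were chosen with earlier results of these data known.

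UMIs were summed per library and type. Intervals are exact (Poisson for CPM, conditional binomial for ratios, Clopper-Pearson for shares) at 95%, and a free RNA count of 0 was taken as 3 counts. All symbols that meet the rule were named, with values where 30 UMIs lay in typed barcodes of each library. No test across samples was made, since each library stands alone. Scripts ran in Python 3.11.15 with numpy 2.4.6, scipy 1.17.1 and pandas 2.3.3, and edgeR 4.0.16 gave TMM scaling as an alternative. The counting rules were tested on simulated data. Some receptor results are not reported here. Alternatives covered depth, mitochondrial share, mixed barcodes, thinning, free RNA, ratios and scaling.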

Additional observations from a re-analysis of the deposited data

How the results depend on the processing

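Of 246 alternative counts, 219 lay within 1.5 times the reported count and 27 did not; the cause of those was not tested. With a minimum of 1000 UMIs, members higher in library 2 numbered 5 in fibroblasts, 7 in chondrocytes and 2 in Schwann cells. With 6000 UMIs, members above free RNA numbered 2 in neutrophils and 0 in Schwann cells, and members higher in library 2 numbered 2 in smooth muscle and 0 in chondrocytes. With barcodes thinned to 3000 UMIs, members higher in library 2 numbered 1 in chondrocytes, 3 in endothelial cells and 2 in T cells, and members lower numbered 7 in smooth muscle, 4 in fibroblasts, 3 in T cells, 6 in Schwann cells and 6 in pericytes. A ratio of at least 4 to free RNA left 2 members in fibroblasts, 2 in T cells, 0 in Schwann cells, 0 in pericytes and 19 over all types in place of 34. A fold of 2 between libraries left 3 higher in smooth muscle, 1 higher in pericytes and 4 lower in macrophages. Without the barcode richest in the member, an alternative chosen after seeing the data, 0 members stood above free RNA in Schwann cells, 2 were higher in T cells, 1 was higher in pericytes and 6 were lower in Schwann cells.

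TMM scaling shifted log2 ratios by -0.15 in macrophages, -0.13 in endothelial cells and -0.13 in Schwann cells, and over all types it gave 24 members higher and 74 lower in place of 28 and 70. With the 10% mitochondrial limit all 34 calls above free RNA were kept. Ccl25, Cxcl5, Cxcl3, Cxcl9, Cxcl14, Ccl17, Ccl21a and Ccl22 changed their leading type in a library when the richest barcode was left out or barcodes were thinned, and Cxcl1 and Cxcl12 when barcodes were thinned, over types of at least 50 barcodes. No paired analysis was possible because each group has 1 sample and no library is tied to a sample. The number of barcodes limits the dendritic, neutrophil, lymphatic endothelial and natural killer or innate lymphoid values, at 19, 26, 14 and 6 barcodes in library 2.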

Other observations

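Pf4, a platelet chemokine that the symbol rule leaves out, was read from the same barcodes. It stood at 418 CPM (401 to 435) and 315 CPM (298 to 334) in macrophage-gated barcodes, 11.1-fold (8.96 to 14.0) and 7.04-fold (5.52 to 9.11) above free RNA. No barcode was typed as platelet in either library.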
